A study of Mus musculus with 6 samples.

Results

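Regulatory T cells are CD4+ T cells that restrain other immune cells, and in tumors they are known for dampening the response against the cancer. Foxp3 is the transcription factor that sets up and keeps their identity. The 6 other genes described here encode further proteins for which these cells are known: Ikzf2 (Helios) and Ikzf4 (Eos), zinc finger transcription factors of the Ikaros family, Il2ra (CD25), the chain that gives the interleukin-2 receptor its high affinity, Tnfrsf4 (OX40) and Tnfrsf18 (GITR), costimulatory receptors of the tumor necrosis factor receptor family, and Ccr8, a chemokine receptor of regulatory T cells within tumors. The 7 genes are a list of names, with no value of theirs used as a criterion, drawn up with earlier results of these data known, and each was found once among 54309 gene identifiers of the table. Apart from Foxp3, the genes are also used by other cells, for example Il2ra, Tnfrsf4 and Tnfrsf18 by activated T cells, so their RNA in a whole tumor is not a count of regulatory T cells.

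The RNA came from 6 whole tumors grown from MCA205, a mouse fibrosarcoma line that can be transplanted, placed under the skin of the right flank of female C57BL/6J mice that were 7 weeks old and had received 1000000 cells on day 0. Control mice (3 tumors) drank plain milliQ water, and FF-10101 mice (3 tumors) drank water with 0.1 mg/mL FF-10101, an irreversible inhibitor of CSF1R and related receptor kinases, from day 1. Tumors of both groups were collected on day 8. Each tumor was described as a separate biological replicate, no cells were sorted, and the transplanted line is a model of 1 tumor.

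The total was 9143806 to 13258258 reads per tumor, and all values are given as normalized counts, that is, reads scaled by each tumor's size factor. A count of 0 allows up to 3 reads, equal to 2.29 to 3.38 normalized counts. The 6 tumors contained T cells by their defining markers, since Cd3e, a chain of the T cell receptor complex, had 67 to 247 reads per tumor. Control tumor 1 stood apart from the other 2 control tumors: the 19 T cell markers, all detected, summed to 7277 normalized counts in it and to 3031 and 2831 in control tumors 2 and 3, and to 3806, 6140 and 6845 in FF-10101–treated tumors 1, 2 and 3. The values of the 7 genes are therefore given with and without control tumor 1. For other genes the value without it is given where it changed the call, except most T cell, cytotoxic and NK cell markers, whose calls are counted together. Control tumor 1 was singled out by its T cell markers, so calls of lymphocyte genes without it depend on that choice. In bulk tumors, fewer cells of a type and less RNA per cell cannot be told apart.

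None of the 7 regulatory T cell genes differed between FF-10101–treated and control tumors beyond the spread between tumors. By limma over the 13963 genes that averaged 10 or more normalized counts, 0 of the 7 had an adjusted p under 0.05 and 0 had an unadjusted p under 0.05. The background was 0.043% of all genes for the adjusted p (6 genes) and 16.3% for the unadjusted p. The 2 groups overlapped in each of the 7 genes, while 10.9% of all genes had every FF-10101–treated tumor above every control tumor and 9.37% had the reverse. limma-voom on the reads also called 0 of the 7. The fold changes lay on either side of 0, with 4 genes higher and 3 lower in FF-10101–treated tumors, and their median log2 fold change was 0.23, beside 0.02 for all genes tested. The medians were 0.76 and 0.04 without control tumor 1.

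**Figure D1:**
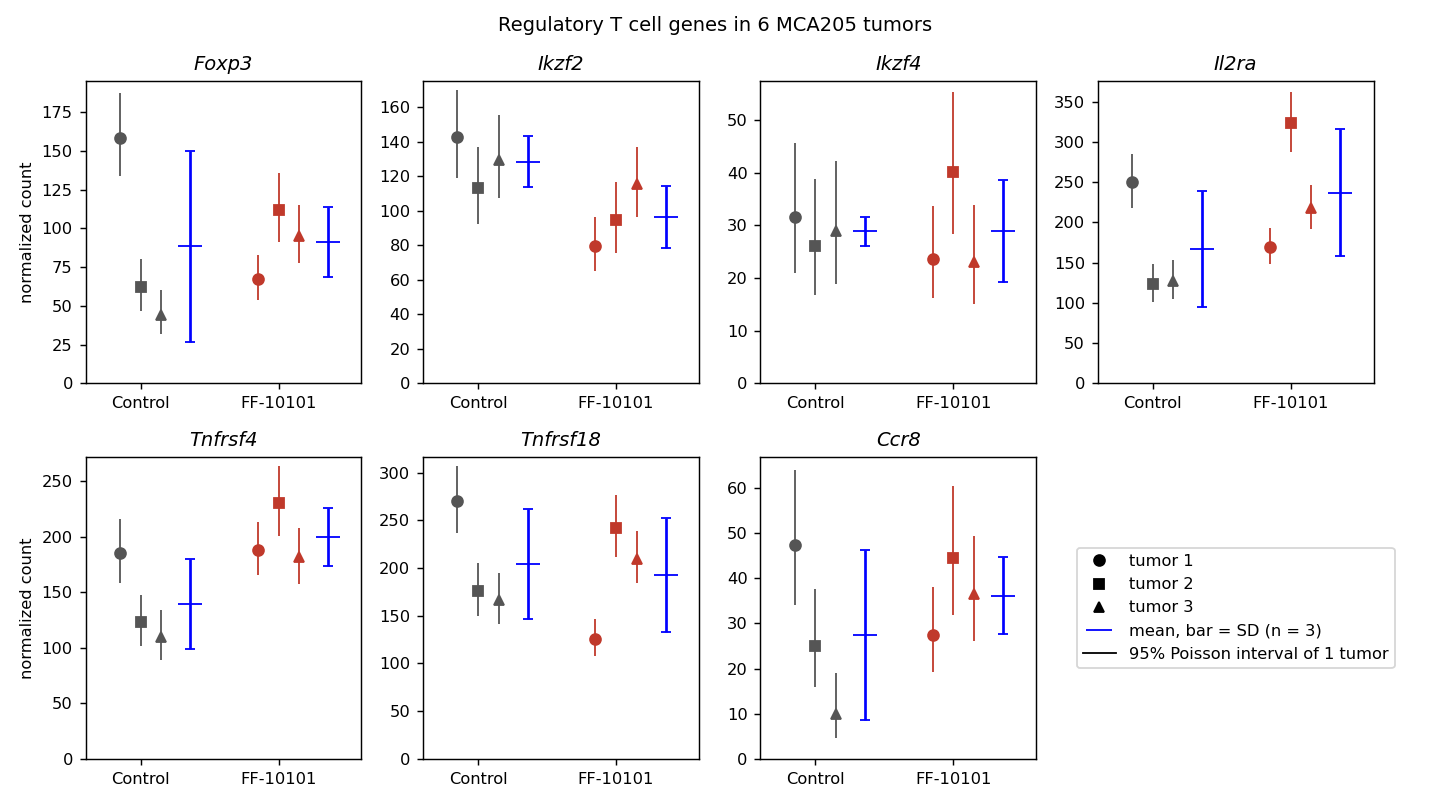
Normalized counts (vertical axes, linear and starting at 0) of the 7 regulatory T cell genes in each of 3 control (grey) and 3 FF-10101–treated (red) tumors. Symbols mark the tumor number, thin bars the 95% Poisson interval of the reads of that tumor, and blue marks the mean and SD of each group (n = 3). The groups overlap in each gene, and control tumor 1 is the highest of the 6 tumors for Foxp3, Ikzf2, Tnfrsf18 and Ccr8.

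Foxp3, the lineage factor (ENSMUSG00000039521), had nearly the same mean in both groups. The control tumors had 158.7, 61.9 and 44.4 normalized counts of Foxp3 (141, 57 and 40 reads) and the FF-10101–treated tumors 67.2, 111.8 and 95.1 (88, 103 and 107 reads). Control tumor 1 was the highest and control tumor 3 the lowest of the 6, so that the control group enclosed the treated group. The mean was 88.3 ± 61.6 in control tumors and 91.4 ± 22.5 in FF-10101–treated tumors (SD, n = 3). The log2 fold change of Foxp3 was 0.23 (95% interval −0.84 to 1.31, limma adjusted p = 0.823), an interval that includes no difference as well as a lower and a higher level in the treated tumors. Among control tumors, the highest Foxp3 value was 3.58-fold the lowest, and their SD was 6.21 times that expected from counting reads alone, against 2.43 times in FF-10101–treated tumors. Without control tumor 1, the log2 fold change was 0.76 (95% interval 0.07 to 1.45, limma adjusted p = 0.106), and without control tumor 3 it turned to −0.15.

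For orientation, the RefSeq sequence just around 1 annotated start of Foxp3 is shown, because STAT5, the factor activated by the interleukin-2 receptor, is known to act on this gene. Of the Foxp3 windows it is the one with a match, and which start these tumors use was not tested. The window is chrX:7580233-7580532 of GRCm38.p6, plus strand, which is an older build than that of the expression table. Capitals mark a match to TTCNNNGAA, the pattern bound by STAT factors, which reads the same on both strands.
Foxp3: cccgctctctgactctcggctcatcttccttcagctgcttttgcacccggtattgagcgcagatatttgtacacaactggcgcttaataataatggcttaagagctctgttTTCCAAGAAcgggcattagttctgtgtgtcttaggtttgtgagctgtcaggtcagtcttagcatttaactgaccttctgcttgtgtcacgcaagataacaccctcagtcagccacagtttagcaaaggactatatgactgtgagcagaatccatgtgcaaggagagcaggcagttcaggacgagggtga
Such a match stood in 8.3% of 32851 promoter windows of this length. The window of another annotated Foxp3 start (chrX:7579426-7579725) and those of Il2ra and Ccr8 held none, and TGANTCA, the AP-1 pattern, which was in 7.81% of the windows and also reads the same on both strands, was in none of the 6 windows found for 5 of the genes. A match describes the letters and is not evidence of binding.

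The Ikaros family genes Ikzf2 and Ikzf4 were the least variable of the 7 among control tumors. The control tumors had 143.0, 113.0 and 129.8 normalized counts of Ikzf2 and the FF-10101–treated tumors 79.4, 94.4 and 115.6. Treated tumors 1 and 2 lay below every control tumor, and treated tumor 3 lay above control tumor 2. The means were 128.6 ± 15.0 and 96.5 ± 18.1 (SD, n = 3), and Ikzf2 was thus the gene with the lowest fold change of the 7, a log2 fold change of −0.42 (95% interval −0.95 to 0.11, limma adjusted p = 0.391). It was −0.34 without control tumor 1 (limma adjusted p = 0.324). Within control tumors the SD of Ikzf2 was 1.26 times the counting SD.

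Ikzf4 had few reads, 24 to 37 per tumor. Its values were 31.5, 26.1 and 28.8 normalized counts in control tumors and 23.7, 40.2 and 23.1 in FF-10101–treated tumors. Treated tumor 2 was the highest and treated tumors 1 and 3 were the lowest of the 6. The SD of Ikzf4 was 0.48 times the counting SD in control tumors and 1.85 times in treated tumors. Its low spread among control tumors thus lay below counting error. The log2 fold change of Ikzf4 was −0.03 (95% interval −0.86 to 0.80, limma adjusted p = 0.972), and its sign changed with the scaling, to 0.02 when the tumors were scaled to their 75th percentile. Leaving out control tumor 1, the log2 fold change of Ikzf4 was 0.03 (limma adjusted p = 0.963). Of the other Ikaros family genes, Ikzf1 (Ikaros), used throughout the lymphoid lineage, had a log2 fold change of 0.09, Ikzf3 (Aiolos) of 0.63 and the widely expressed Ikzf5 of 0.01, with limma adjusted p of 0.927, 0.587 and 0.979.

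Il2ra encodes the receptor chain through which regulatory T cells take up interleukin-2. The control tumors had 249.9, 122.8 and 127.6 normalized counts of Il2ra and the FF-10101–treated tumors 169.5, 323.5 and 217.8. Treated tumor 2 was the highest, and each treated tumor lay above control tumors 2 and 3, whereas control tumor 1 lay above treated tumors 1 and 3. The means were 166.8 ± 72.0 and 236.9 ± 78.8 (SD, n = 3), and the log2 fold change was 0.53 (95% interval −0.26 to 1.33, limma adjusted p = 0.466). Without control tumor 1 it was 0.86 (95% interval 0.24 to 1.49, limma adjusted p = 0.0549), just outside the threshold.

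The partners of Il2ra in the receptor were not called with 6 tumors. Il2rb, the β chain, had a log2 fold change of 0.83 (limma adjusted p = 0.434) and Il2rg, the γ chain shared with other cytokine receptors, of 0.60 (limma adjusted p = 0.583). Leaving out control tumor 1, these were 1.40 (limma adjusted p = 0.0203) and 1.27 (limma adjusted p = 0.00463), both past the threshold. Il2, the cytokine itself, was read at most 2 times in any tumor, under the limit that a count of 0 allows, so its level could not be compared.

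Tnfrsf4 and Tnfrsf18, costimulatory receptors, lie next to each other on chromosome 4, their RefSeq windows starting 12627 bases apart. The control tumors had 185.7, 122.8 and 109.8 normalized counts of Tnfrsf4 and the FF-10101–treated tumors 187.9, 230.2 and 181.3. Control tumor 1 lay between treated tumors 3 and 1, and it alone made the groups overlap. The means were 139.4 ± 40.6 and 199.8 ± 26.5 (SD, n = 3), 1.43-fold apart, with a log2 fold change of 0.55 (95% interval −0.02 to 1.12, limma adjusted p = 0.324). Tnfrsf4 was the 1 gene of the 7 called without control tumor 1, with a log2 fold change of 0.77 (95% interval 0.32 to 1.22, limma adjusted p = 0.0281). In that fit 21.9% of all genes were called (3051 genes).

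Tnfrsf18 had 270.2, 176.0 and 166.4 normalized counts in control tumors and 126.0, 242.1 and 209.8 in FF-10101–treated tumors. Control tumor 1 was the highest and treated tumor 1 the lowest of the 6, and of the other 4 the treated tumors lay above the control tumors. The means were 204.2 ± 57.3 and 192.6 ± 59.9 (SD, n = 3), and the log2 fold change was −0.10 (95% interval −0.80 to 0.60, limma adjusted p = 0.885). It was 0.12 without control tumor 1 and 0.18 without treated tumor 1, so its sign rested on either of these tumors.

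The ratio of Tnfrsf4 to Tnfrsf18 within a tumor, chosen after the values were seen and given without a test, was 0.688, 0.698 and 0.660 in control tumors and 1.49, 0.951 and 0.864 in FF-10101–treated tumors. The control tumors were close to each other, control tumor 1 included, closer than counting error at 99 to 240 reads would usually leave them. Their small spread is therefore not a measure of a steady ratio. Each treated tumor lay above every control tumor, and treated tumor 1 raised the treated mean. The mean ratio was 0.682 ± 0.0194 in control tumors and 1.10 ± 0.340 in treated tumors (SD, n = 3), a log2 difference of 0.65, and it was 0.66 without control tumor 1. The RefSeq windows of these neighbours are shown so that the letters before each start can be read side by side, with no bearing on the ratio. They are on the plus strand of GRCm38.p6, at chr4:156013445-156013744 for Tnfrsf4 and chr4:156026072-156026371 for Tnfrsf18, and capitals again mark TTCNNNGAA, found in Tnfrsf18 alone of the pair.
Tnfrsf4: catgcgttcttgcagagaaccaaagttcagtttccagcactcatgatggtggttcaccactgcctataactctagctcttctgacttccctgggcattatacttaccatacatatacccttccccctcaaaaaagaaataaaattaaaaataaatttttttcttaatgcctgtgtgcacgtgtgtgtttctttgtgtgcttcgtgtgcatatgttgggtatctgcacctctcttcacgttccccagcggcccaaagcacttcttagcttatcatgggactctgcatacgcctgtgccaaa
Tnfrsf18: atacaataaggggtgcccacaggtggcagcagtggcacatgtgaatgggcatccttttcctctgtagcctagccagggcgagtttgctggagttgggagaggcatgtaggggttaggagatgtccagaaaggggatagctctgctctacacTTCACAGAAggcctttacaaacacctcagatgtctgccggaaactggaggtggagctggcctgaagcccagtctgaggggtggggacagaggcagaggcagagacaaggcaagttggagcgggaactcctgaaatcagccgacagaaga
The ligands of both receptors had few reads. Tnfsf4, the ligand of the Tnfrsf4 protein, had 4 to 22 reads per tumor and a log2 fold change of 0.21 (limma adjusted p = 0.901). Tnfsf18, the ligand of the Tnfrsf18 protein, had 2 to 10 reads per tumor and lay under the minimum of the test.

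Ccr8 had few reads, 9 to 42 per tumor, from a short transcript of 1175 bases. The control tumors had 47.3, 25.0 and 9.98 normalized counts of Ccr8 and the FF-10101–treated tumors 27.5, 44.5 and 36.4. Control tumor 1 was the highest and control tumor 3 the lowest, 4.74-fold apart, and the treated tumors lay between control tumors 1 and 2. The means were 27.4 ± 18.8 and 36.1 ± 8.51 (SD, n = 3), and the log2 fold change was 0.61 (95% interval −0.67 to 1.89, limma adjusted p = 0.604), the widest interval of the 7. Without control tumor 1 it was 1.11 (95% interval 0.04 to 2.18, limma adjusted p = 0.124), without control tumor 3 it was 0.04, and on the deposited log2 values it was 0.27. Of the ligands of this receptor, Ccl1 had 6 to 27 reads per tumor and a log2 fold change of 0.24 (limma adjusted p = 0.860), and the abundant Ccl8 had 6166 ± 2808 normalized counts in control and 5991 ± 4206 in treated tumors (SD, n = 3), a log2 fold change of −0.17 (limma adjusted p = 0.883).

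**Figure D2:**
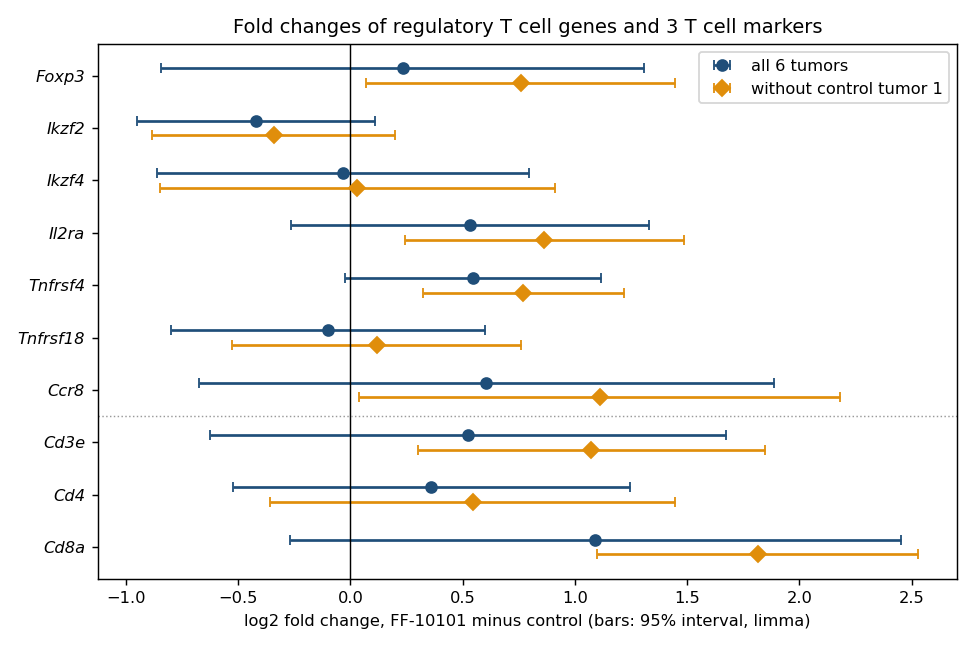
log2 fold change (FF-10101–treated minus control, horizontal axis) with its 95% interval from limma for the 7 regulatory T cell genes and, under the dotted line, 3 T cell markers. Circles are all 6 tumors and diamonds the 5 tumors without control tumor 1. With all 6 tumors each interval includes 0, and without control tumor 1 those of Foxp3, Il2ra, Tnfrsf4 and Ccr8 lie above 0, of which Tnfrsf4 alone passed the adjusted threshold among the 7.

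Levels were compared between the genes per kilobase of the longest coding transcript. Per kilobase of all exon bases of a gene, the order was the same in both groups. The place of Ikzf2 depends on the length chosen, since its longest coding transcript has 9278 bases and its median one 1365. Which transcripts the tumors made was not tested. In control tumors the order of levels per kilobase was Tnfrsf18 (172 ± 48.2 normalized counts per kilobase), Tnfrsf4 (135 ± 39.4), Il2ra (37.8 ± 16.3), Ccr8 (23.3 ± 16.0), Foxp3 (23.0 ± 16.1), Ikzf2 (13.9 ± 1.62) and Ikzf4 (5.59 ± 0.528). Neighbours in this order overlapped within 1 SD of each mean except at the steps from Tnfrsf4 to Il2ra and from Ikzf2 to Ikzf4. In FF-10101–treated tumors Tnfrsf4 (194 ± 25.7 normalized counts per kilobase) stood above Tnfrsf18 (162 ± 50.4), and then came Il2ra (53.7 ± 17.9), Ccr8 (30.8 ± 7.24), Foxp3 (23.8 ± 5.88), Ikzf2 (10.4 ± 1.96) and Ikzf4 (5.63 ± 1.88, all SD, n = 3). Here the neighbours without overlap within 1 SD were Tnfrsf18 and Il2ra, Foxp3 and Ikzf2, and Ikzf2 and Ikzf4.

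The level of Foxp3 relative to other T cell genes was compared within each tumor, where the size factor does not enter. These ratios formed 1 family of 15, each compared by permuting the group labels exactly, two-sided, for which 3 against 3 tumors allow no p below 0.1. Cd8a encodes a chain of the coreceptor of cytotoxic T cells. The ratio of Cd8a to Foxp3 was 2.06, 1.25 and 1.50 in control tumors and 2.45, 2.58 and 3.64 in FF-10101–treated tumors. Each treated tumor lay above each control tumor, control tumor 1 included, which made this the 1 ratio of the 15 whose groups did not overlap. The mean was 1.60 ± 0.415 in control and 2.89 ± 0.653 in treated tumors (SD, n = 3), a 1.82-fold higher geometric mean (log2 difference 0.86, exact permutation p = 0.1, the smallest possible, and 0.643 adjusted over the 15). Without control tumor 1 the log2 difference was 1.06. Cd8a itself had 326.4, 77.2 and 66.6 normalized counts in control and 165.0, 288.8 and 346.7 in treated tumors, groups that overlapped through control tumor 1 (log2 fold change 1.09, limma adjusted p = 0.386), and it was called at 1.82 without that tumor (limma adjusted p = 0.00753).

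Relative to Cd3e, which marks T cells of all kinds, Foxp3 was 0.638, 0.740 and 0.597 in control tumors and 0.657, 0.539 and 0.433 in FF-10101–treated tumors. Treated tumors 2 and 3 lay below every control tumor and treated tumor 1 within them. The log2 difference was −0.29 (exact permutation p = 0.3, adjusted 0.643). Leaving out 1 tumor at a time, it was −0.44 to −0.14. With the mean of Cd3d, Cd3e and Cd3g in place of Cd3e, it was −0.17 (exact permutation p = 0.6). In control tumors the ratio of Foxp3 to Cd3e spanned less than Foxp3 itself. Control tumor 1, the highest in Foxp3, was also the highest in Cd3e with 248.8 normalized counts against 83.7 and 74.3. Relative to Cd4, the coreceptor gene of helper and regulatory T cells that macrophages can also transcribe, Foxp3 was 0.806, 0.370 and 0.412 in control and 0.607, 0.427 and 0.365 in treated tumors. The log2 difference was −0.13 (exact permutation p = 0.8, adjusted 0.923), and it turned to 0.22 without control tumor 1 and to 0.03 without treated tumor 3.

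Of the other members, Ikzf2 had the largest shift relative to Cd3e. Its ratio to Cd3e was 0.575, 1.35 and 1.75 in control and 0.776, 0.455 and 0.526 in FF-10101–treated tumors. Control tumor 1 lay among the treated tumors and the other 2 control tumors above them, and the log2 difference was −0.95 (exact permutation p = 0.2, adjusted 0.643). Without control tumor 1 it was −1.43. The ratios of Il2ra, Tnfrsf4 and Ccr8 to Cd3e differed by log2 0.01, 0.02 and 0.11, and that of Tnfrsf18 by −0.63, with exact permutation p of 1.0, 1.0, 0.8 and 0.3. These differences without control tumor 1 were −0.21, −0.31, 0.08 and −0.97. The ratio of Ikzf4 to Cd3e differed by log2 −0.57 (exact permutation p = 0.4), and by −1.05 without control tumor 1. The ratio of Ccr8 to Foxp3 was 0.298, 0.404 and 0.225 in control tumors and 0.409, 0.398 and 0.383 in treated tumors. The SD of this ratio was 0.0130 among treated and 0.0898 among control tumors. With 36 to 41 reads of Ccr8 per treated tumor, counting error alone is larger than 0.0130. The small SD is therefore not a sign of a steadier ratio in treated tumors. The log2 difference of the Ccr8 to Foxp3 ratio was 0.40 (exact permutation p = 0.3, adjusted 0.643).

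**Figure D3:**
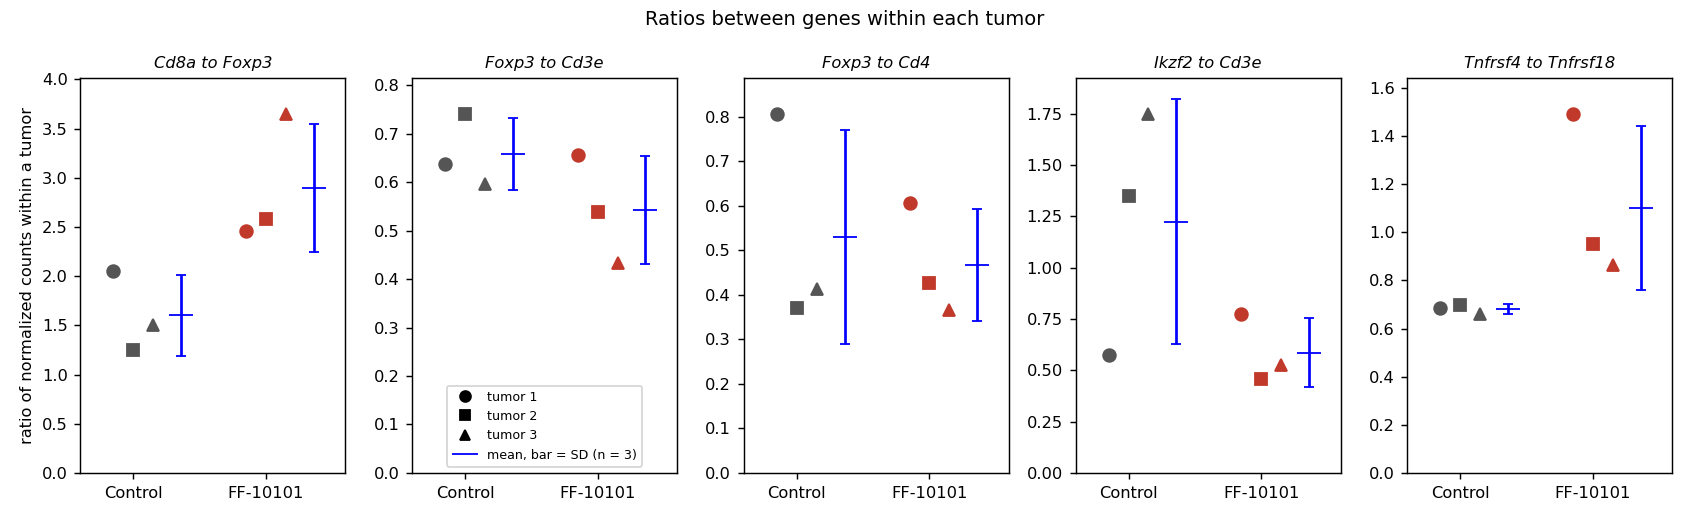
Ratios of normalized counts within each tumor (vertical axes, linear and starting at 0) in 3 control (grey) and 3 FF-10101–treated (red) tumors. Symbols mark the tumor number and blue the mean and SD (n = 3). The groups are apart for Cd8a to Foxp3 and for Tnfrsf4 to Tnfrsf18, the latter chosen after the values were seen, and overlap for the other 3.

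Tumor by tumor, control tumor 1 had the highest level of Foxp3, Ikzf2, Ccr8 and Tnfrsf18, the next highest of Il2ra and Ikzf4 and the third highest of Tnfrsf4. The likeness of 2 genes was measured as the root mean square distance between their log2 values over the 6 tumors, each centred on its mean. Among the members the nearest to Foxp3 were Ccr8 (0.293) and Il2ra (0.306) and the farthest was Ikzf2 (0.610), while the closest pair was Il2ra and Tnfrsf4 (0.223) and the most distant was Ikzf2 and Ccr8 (0.804). With 6 tumors and 13963 genes, genes closer than any member were found for each. The 3 nearest to Foxp3 were Slc29a3, a nucleoside transporter (0.0689), Ifi30, a lysosomal thiol reductase (0.0898), and Aatk (0.0951). Those nearest to Ccr8 were Nr4a3 (0.140), an orphan nuclear receptor, Gm16201 and Spin2c.

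The nearest to Il2ra were Cryab, BC028528 and Cd2 (0.112 to 0.120), of which Cd2 encodes a T cell and NK cell adhesion molecule. Those nearest to Ikzf2 were Dcp1b, Ccr1 and Ninj1 (0.0507 to 0.0773), and those nearest to Ikzf4 were Mob3b, Gm10516 and Adck2 (0.0744 to 0.105). Tnfrsf18 was nearest to Acss2, Hspb1 and Kcnk6 (0.0613 to 0.0920) and Tnfrsf4 to Mllt6, Caskin2 and E130308A19Rik (0.0586 to 0.0733). These points share library and depth, and the distances are a description.

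**Figure D4:**
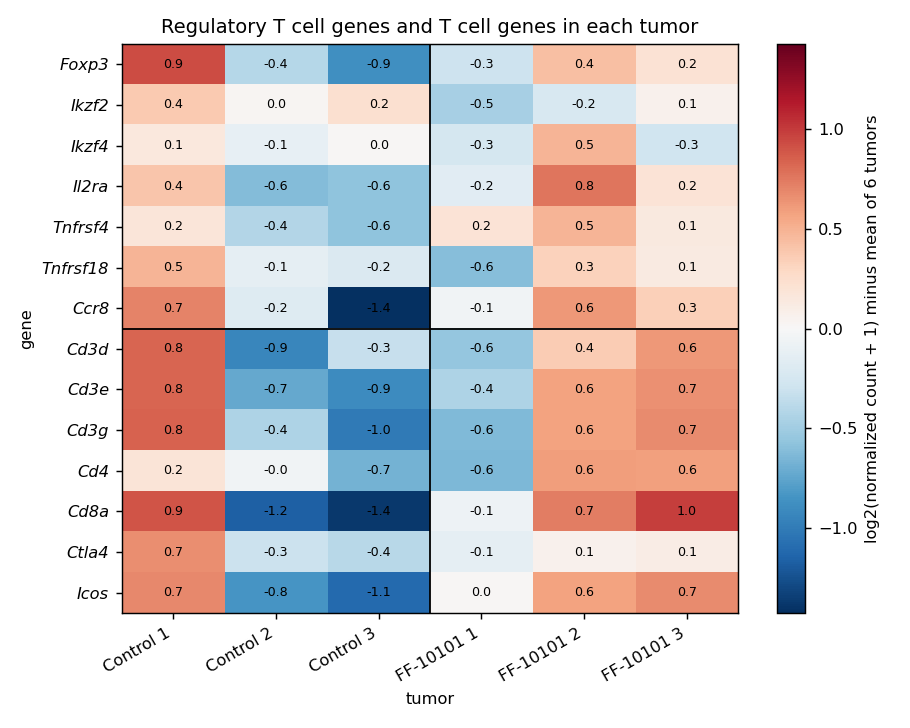
log2(normalized count + 1) minus the mean of the 6 tumors (color and printed value) for the 7 regulatory T cell genes (above the line) and 7 T cell genes (below it), with tumors in columns. Control tumor 1 is above the mean in all 14 genes, and control tumors 2 and 3 are at or below it in all of them except Ikzf2 and Ikzf4.

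Other genes for which regulatory T cells are known were read from lists, and no gene of them passed the adjusted threshold with all 6 tumors. Over all lists, 136 genes were tested, and these include the markers of T cells and of other cells described further below. Among the 136, 13 were higher (9.56%) and 1 was lower (0.735%) at an unadjusted p under 0.05, beside 8.77% and 7.49% of all genes. By limma or limma-voom, 0 were called. Of the 136, 9 had every FF-10101–treated tumor above every control tumor and 5 had the reverse, beside 10.9% and 9.37% of all genes. When control tumor 1 was left out, 55 of the 136 were called higher (40.4%) and 2 lower (1.47%), beside 12.0% and 9.88% of all genes, 21.9% together. Part of the 55 were markers of other cells, with 12 of 12 cytotoxic and 7 of 8 NK cell markers called higher. Of the effector regulatory T cell genes 9 of 22 were, and of the transcription factors 9 of 30. Of the surface and secreted genes of effector regulatory T cells, 22 of 24 were tested, 15 higher and 7 lower, with a median log2 fold change of 0.46 beside 0.02 for all genes. Ctla4, the inhibitory receptor that binds CD80 and CD86, had a log2 fold change of 0.03 (limma adjusted p = 0.970) and Icos, an inducible costimulator, of 0.84 (limma adjusted p = 0.381). Icos was called without control tumor 1, at 1.40 (limma adjusted p = 0.00666). Lrrc32 (GARP), which holds latent TGF-β on the surface of activated regulatory T cells and is also used by endothelial cells, had 207.1, 133.7 and 102.0 normalized counts in control and 218.4, 411.5 and 346.7 in FF-10101–treated tumors. The groups did not overlap, and its log2 fold change was 1.15 (limma adjusted p = 0.229), and 1.42 without control tumor 1 (limma adjusted p = 0.0123).

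Il1rl1 (ST2), the interleukin-33 receptor of tissue regulatory T cells, group 2 innate lymphoid cells and mast cells, had the highest fold change of that list, with 5087, 1454 and 1581 normalized counts in control tumors against 5680, 5552 and 7365 in FF-10101–treated tumors. Each treated tumor lay above each control tumor, and the log2 fold change was 1.44 (limma adjusted p = 0.233), and 2.02 without control tumor 1 (limma adjusted p = 0.000464). Cd83 and Areg were lower without overlap of the groups, at log2 fold changes of −0.60 and −0.67 (limma adjusted p of 0.230 and 0.437).

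Around the interleukin-2 receptor, 14 of 15 genes were tested and all 14 were higher in FF-10101–treated tumors, with a median log2 fold change of 0.44 and 0 called. Of the 14, 10 were called without control tumor 1, all higher, where 12.0% of all genes were called higher. Socs2, a feedback inhibitor induced by STAT5, had 188.0, 121.7 and 113.1 normalized counts in control and 313.1, 349.6 and 307.5 in treated tumors. The groups were well apart, control tumor 1 included, and the log2 fold change was 1.23 (unadjusted p = 0.000722, limma adjusted p = 0.224), and 1.45 without control tumor 1 (limma adjusted p = 0.00172). Il15ra, which presents interleukin-15, had a log2 fold change of 0.57 (limma adjusted p = 0.253), Il7r, the interleukin-7 receptor that regulatory T cells carry little of, of 1.30 (limma adjusted p = 0.357) and Bcl2, a survival factor, of 0.08 (limma adjusted p = 0.855). Il7r was called without control tumor 1, at 1.91 (limma adjusted p = 0.0367).

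Of the transcription factors and cofactors that act with or on Foxp3, 30 of 31 were tested, 26 higher and 4 lower, with a median log2 fold change of 0.34. The demethylating enzyme Tet2, Lef1 and Foxo3 were higher without overlap of the groups, at log2 fold changes of 0.61, 0.90 and 0.37 (limma adjusted p of 0.250, 0.279 and 0.302). These were 3 of the 30, and 1 other was lower without overlap, beside 10.9% and 9.37% of all genes. The extremes were Satb1, a chromatin organizer, at 1.13 and Nfatc2 at −0.69 (limma adjusted p of 0.336 and 0.413). Lef1 and Satb1 were called without control tumor 1, at 1.20 and 1.84 (limma adjusted p of 0.0257 and 0.0011), and Nfatc2 was at −0.25. Of the costimulatory TNF superfamily, 15 of 20 were tested, 9 higher and 6 lower, with a median of 0.21. Tnfsf9 (4-1BB ligand), Cd40 and Tnfrsf1b had the smallest p values of it, at log2 fold changes of −0.36, 0.41 and 0.52 (limma adjusted p of 0.487, 0.523 and 0.538). Cd40 and Tnfrsf1b were called without control tumor 1, at 0.77 and 0.95 (limma adjusted p of 0.0212 and 0.0397).

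Of the chemokines and receptors that draw regulatory T cells, 14 of 18 were tested, 9 higher and 5 lower, with a median log2 fold change of 0.20. Ccl5, a chemokine made by T cells and NK cells among others, had a log2 fold change of 1.88 without overlap (limma adjusted p = 0.229), and 2.55 without control tumor 1 (limma adjusted p = 0.000273). Ccl21a and Ccl19, ligands of Ccr7, had log2 fold changes of 3.13 and 1.21 (limma adjusted p of 0.351 and 0.367), each with overlapping groups. Ccl21a had 75.4, 3.26 and 59.9 normalized counts in control tumors and 922.6, 597.1 and 23.1 in FF-10101–treated tumors. Treated tumor 3 lay below control tumors 1 and 3, and the value of control tumor 2 rested on 3 reads. Ccl17 and Ccl22, ligands of Ccr4, had −0.77 and −0.47 (limma adjusted p of 0.640 and 0.445), each with overlapping groups. Ccl17 was called lower without control tumor 1, at −1.71 (limma adjusted p = 0.0232), and Ccl22 was at −0.31 (limma adjusted p = 0.461).

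**Figure D5:**
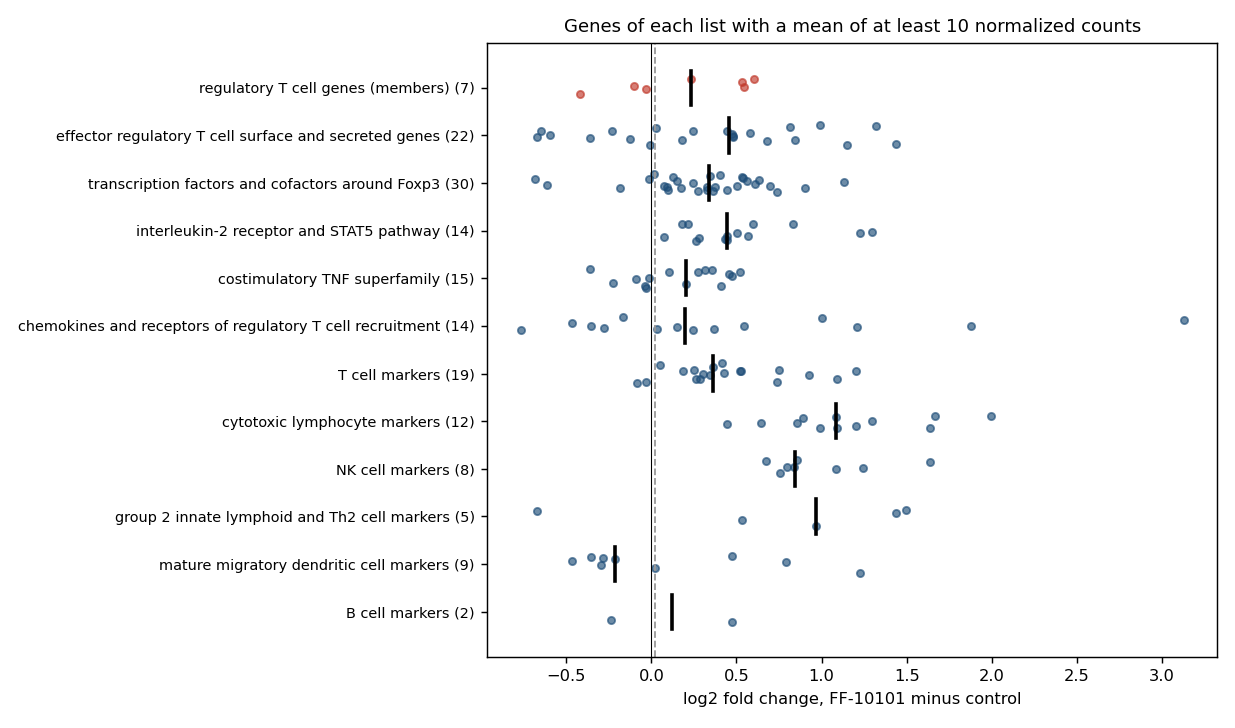
log2 fold change (FF-10101–treated minus control, horizontal axis) of the genes of each list that averaged 10 or more normalized counts, with the number tested in parentheses. Points are genes, black bars list medians and the dashed line the median of all 13963 genes. The 7 regulatory T cell genes (red) spread from −0.42 to 0.61 around a median of 0.23, and cytotoxic lymphocyte markers have a median of 1.09.

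Markers of the other cells that could hold this RNA were read beside the 7 genes. Of the 19 T cell markers, all were tested, 17 higher and 2 lower, with a median log2 fold change of 0.36 and 0 called. Thy1 and Cd8a had log2 fold changes of 0.74 and 1.09, and Cd8b1 (1.20) and Trbc2 (−0.08) were the extremes. The 12 cytotoxic lymphocyte markers were all higher, with a median of 1.09, among them Gzma (1.64), Ifng (1.99), Gzmb (0.99) and Tbx21 (0.45), and their summed level was 1309 to 5918 normalized counts in control and 4223 to 7489 in FF-10101–treated tumors. The 8 NK cell markers were all higher, with a median of 0.85, including Eomes (1.08), Klrb1c (1.24) and Ncr1 (0.68), and summed to 684 to 2919 and 2320 to 4298. Gzma, which is in both sums, had 817 ± 578 normalized counts in control and 2136 ± 637 in FF-10101–treated tumors (SD, n = 3), a large part of the NK cell sum. None of these lymphocyte markers was called with 6 tumors. Without control tumor 1, 7 of 19 T cell, 12 of 12 cytotoxic and 7 of 8 NK cell markers were called, all higher. Of all genes, 12.0% were called higher in that fit. Control tumor 1 was left out because its T cell markers were high, which itself favours such calls, so these counts are not a separate result. Cd8a and Cd8b1 are in both the T cell and cytotoxic lists, and Gzma and Eomes in both the cytotoxic and NK cell lists.

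Group 2 innate lymphoid and Th2 cell markers, of cells that can also carry Il2ra, summed to 1621 to 5341 normalized counts in control and 5811 to 7670 in FF-10101–treated tumors. Nearly all of this sum was Il1rl1, and the other 8 markers summed to 254, 167 and 108 normalized counts in control and 199, 259 and 305 in treated tumors, which overlapped. The 9 were all detected, Calca with at most 3 reads per tumor, 5 were tested and 4 of these were higher, with a median log2 fold change of 0.97. Besides Il1rl1 they included Rora (0.97, and 1.45 without control tumor 1, limma adjusted p = 0.0322) and Il13 (1.49). Mature migratory dendritic cell markers summed to 6638 to 7859 and 6357 to 7681 normalized counts. Of this, Fscn1 alone had 4504 ± 255 in control and 3974 ± 1083 in FF-10101–treated tumors (SD, n = 3), so the sum mostly shows 1 gene. These markers, 9 of 9 tested with 4 higher and 5 lower, had a median of −0.21. Cd80 (0.79), Socs2 (1.23), Cacnb3 (−0.29) and Ccl22 (−0.47) had the smallest p values or the extreme values among them, and Cd80 was called at 1.05 without control tumor 1 (limma adjusted p = 0.0382). B cell markers summed to 97.6 to 203.7 and 106.9 to 252.4 normalized counts, with Pax5 at most 3 reads and 2 of 7 tested, Cd22 (0.47) and Cd79b (−0.23). The part of these cells in the values of the 7 genes was not tested.

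When limma weighted each tumor by its agreement with its group, 5 of the 7 genes were called higher: Foxp3, Il2ra, Ccr8, Tnfrsf18 and Tnfrsf4, with log2 fold changes of 0.80, 1.27, 0.83, 0.39 and 0.86. In that fit 59.9% of all genes were called, and the weights ran from 0.139 for control tumor 1 to 5.39 for control tumor 2 and 8.08 for treated tumor 2, so that it rested mostly on 1 tumor of each group.

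Some reads of the 7 genes are uncertain. Foxp3 shares exon bases with Ccdc22 (590), Flicr (853), Gm36995 (373) and Ppp1r3f (266), Tnfrsf18 with Gm16008 (414), Ikzf2 with Gm29114 (144) and Ikzf4 with Gm26876 (37), by GENCODE vM21. Only Flicr lies on the same strand as its partner. Whether reads were assigned by strand is not stated, and without strand the reads of such a pair cannot be told apart. Of these neighbours Ccdc22 had the most reads, 207 to 353 per tumor. A stretch of at least 75 bases at 97% identity occurred in transcripts of 20 other genes for Ikzf4, 3 for Il2ra, 4 for Foxp3, 1 each for Ikzf2 and Tnfrsf18 and 0 for Ccr8 and Tnfrsf4.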

How the data were processed

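Bulk RNA of 6 MCA205 tumors was examined, 3 control and 3 FF-10101, grouped by the sample labels. The authors trimmed reads with fastp version 0.19.5, quantified them with Salmon version 1.5.1 on GENCODE vM27 (GRCm39) and used DESeq2 version 1.22.1. The deposited values are on a log2 scale, and their transformation is not named in the sources used here. They have the form of a variance-stabilizing transformation, and its inverse gave whole reads for 100% of 325854 values (tolerance 0.01). Reads divided by the size factor gave normalized counts. The table had been planned for as normalized counts. Because Salmon splits reads of similar transcripts by estimation, genes with copies are uncertain.

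Of 54309 identifiers, 51484 were named through GENCODE vM21. log2(normalized count + 1) of 13963 genes with a mean of at least 10 was fitted with limma version 3.58.1 (R version 4.3.3; lmFit, eBayes with trend, group alone), and p values were adjusted by Benjamini-Hochberg over all of them. A fold change on this scale understates that of genes with few reads. Genes under the minimum were read from a fit without it. Lists are described by counts and medians. Poisson intervals and the limit of 3 reads cover counting error only. Shared stretches were sought with BLAST version 2.17.0 on GENCODE vM21 transcripts, and sequences come from RefSeq windows, 250 bases before to 50 after a start, on GRCm38.p6. The limma steps were tested on simulated data in which no tumor stood apart, unlike control tumor 1 here. Outside the rule that follows, Fscn1 was named for its part in a sum. Named were the 7 genes, set partner genes, Cd3e, Cd4, Cd8a, Ctla4 and Icos, in each list the 3 genes of smallest p and the highest and lowest fold change, and the 3 genes nearest to each of the 7. The values of 1 gene named by this rule are not reported here. The 7 genes and the lists were chosen with earlier results of these data known. Alternatives were other pseudocounts (0.5, 10), minimums (none, 50) and scaling, no trend, array weights, a replicate block, the deposited log2 values, limma-voom, and each tumor left out.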

Additional observations from a re-analysis of the deposited data

How the results depend on the processing

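The number of the 7 genes called was 0 in all fits run except with array weights, which called 5, and over the fits leaving out 1 tumor it was 0 to 1, the 1 being Tnfrsf4 without control tumor 1. Of the listed genes, 0 were called with 6 tumors, 103 with array weights and 0 to 57 when 1 tumor was left out, the 57 without control tumor 1. Over all genes, 6 were called, against 17 with no minimum count, 3 with a mean of at least 50, 8365 with array weights, 3051 without control tumor 1, 1 without control tumor 2, and 3 each without control tumor 3 or treated tumor 2. The log2 fold change of Foxp3 was −0.15 to 0.76 when 1 tumor was left out, that of Ikzf4 −0.29 to 0.10, that of Tnfrsf18 −0.29 to 0.18, that of Ccr8 0.04 to 1.11, that of Il2ra 0.28 to 0.86, that of Tnfrsf4 0.39 to 0.77 and that of Ikzf2 −0.56 to −0.29. Against their sign with 6 tumors, array weights gave Ikzf4 0.48 and Tnfrsf18 0.39, and scaling to the 75th percentile gave Ikzf4 0.020. Ccr8 was at 0.41 with a pseudocount of 10 and 0.27 on the deposited log2 values. That scaling moved the median of all genes from 0.02 to 0.08. The Foxp3 to Cd4 ratio ranged from −0.34 to 0.22 on the log2 scale, and the Cd8a to Foxp3 ratio from 0.68 to 1.06. The cause of these changes was not tested. Ikzf4 and Ccr8 lie under a mean of 50 and gave no value there. With the replicate block, 0 of the 7 genes and 1 of all genes were called, and the Foxp3 to Cd3e difference stayed at −0.29 (exact sign-flip p = 0.5). Same-numbered tumors correlated at −0.288 to −0.0397 and 0 of 6 tumors correlated best with its own number, so that the numbers do not pair the tumors. The sum of the innate lymphoid and Th2 markers without Il1rl1 was chosen after seeing the data. With few reads, Ikzf4 and Ccr8 carry the largest counting error of the 7 genes relative to their level.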
